A study of Drosophila melanogaster with 4 samples.

Results

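The T-box genes of Drosophila melanogaster encode transcription factors that share a DNA-binding domain, the T-box, first known from mouse Brachyury. All 8 were taken by gene symbol from the Ensembl BDGP6 annotation, and they are byn, bi, mid, H15, Doc1, Doc2, Doc3 and org-1, of 13968 protein-coding genes on the chromosome arms. A transcription start site (TSS) was counted for a gene when it lay on the same strand within 200 bp of any annotated start of its transcripts. By this rule 153 of the 232302 listed TSSs belonged to the T-box genes. None of these TSSs was also within 200 bp of a start of another gene.

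The study mapped initiating transcripts in Canton S wild-type embryos between 0 and 12 h of age, in 3 csRNA-seq libraries and 1 input library, with no mutant and no treatment. The csRNA-seq assay enriches short RNAs that carry a 5′ cap, so the first base of each read marks where transcription was initiated. Coverage at a start is a count of 5′ ends and does not grow with the length of a gene. Levels of different genes can still differ in scale. A gene with more annotated starts is summed over more bases, and the values come from different libraries, as described below. The embryos were collected from population cages, so each library pools animals of many ages and all tissues, and fewer cells of a type cannot be told apart from less RNA per cell. The levels below are therefore levels of the collection as a whole.

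The deposited list holds 1 coverage value per TSS, in reads per 10000000. Each value was a whole number of reads of 1 of 3 libraries, with sizes of 7299457, 5931389 and 4070746 reads, where 1 read was worth 1.37, 1.69 and 2.46. Which replicate each size belongs to, and how 1 library was chosen for each TSS, are not given in the sources used here, so a ratio of 2 TSSs can compare different libraries. A spread between replicates could not be computed, no test was made, and each interval given is a 95% counting interval that covers counting error only. Values of the input library were not analysed here. Of 8 genes listed as embryo markers, all had a TSS near a start, where 70.0% of all protein-coding genes did. Their summed coverage lay between 20.8 at zen and 8529 at Kr, a gap gene. It was at least 100 at 6 of them, a level that 43.7% of protein-coding genes reached. Of 9 genes typical of other stages or tissues, only Cp36, an eggshell gene, had a TSS, at 3.37.

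T-box factors act early in laying out tissues of the fly embryo. The Dorsocross genes Doc1, Doc2 and Doc3 lie side by side and act redundantly in the amnioserosa, the dorsal ectoderm and the heart, where they are switched on in response to the BMP ligand Dpp. The neighbours mid and H15 are the fly relatives of vertebrate Tbx20 and act in the heart, the nervous system and the epidermis. The gene byn is the Brachyury ortholog and is required for the hindgut, bi (optomotor-blind) is related to Tbx2 and acts in the optic lobe and the wing, and org-1 is the Tbx1 ortholog and acts in visceral and somatic muscle founders. Neighbouring paralogs can share enhancers while each retains a promoter of its own, and a TSS map reads out each promoter base by base.

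All 8 T-box genes had a TSS near an annotated start, where 70.0% of all protein-coding genes did. Their summed coverage ran from 28.6 at H15 to 14943 at Doc1, a 523-fold range. All except H15, 7 of the 8, had a summed coverage of at least 100, a level that 43.7% of protein-coding genes reached. The median of the 8 genes was 502.1, and the median of the 9782 protein-coding genes with a TSS was 172.7. In falling order the levels were those of Doc1, Doc3, bi, Doc2, mid, org-1, byn and H15. Only org-1 and byn stood next to each other with counting intervals that overlap. The 3 Doc genes together held 85.4% of the coverage of the family, Doc1 alone 64.3%, and mid and H15 together 1.54%.

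**Figure D1:**
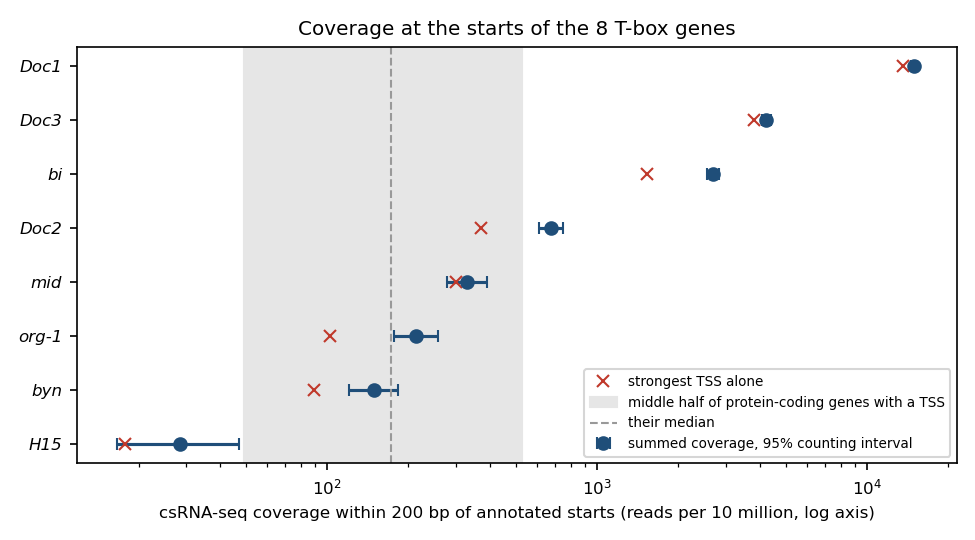
Summed csRNA-seq coverage within 200 bp of annotated starts (circles, with 95% counting intervals) and coverage of the strongest TSS (crosses) of the 8 T-box genes, in reads per 10000000 on a log axis, with the interquartile range (grey band) and the median (dashed line) of protein-coding genes with a TSS. Doc1, Doc3, bi and Doc2 lie above the band, which ends at 526.3, and H15 lies below its lower edge of 49.1.

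The 3 Dorsocross genes lie on chromosome arm 3L (dm6), with 36179 bp between the starts of Doc3 and Doc1. Doc3 (FBgn0035954, 9005196 to 9007249, plus strand) starts 14050 bp from the start of Doc2 (FBgn0035956, 9012686 to 9019246, minus strand). Doc1 (FBgn0028789, 9041375 to 9045042, plus strand) starts 22129 bp from the start of Doc2. Doc2 and Doc1 are thus transcribed away from each other, and Doc2 and Doc3 towards each other.

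Doc1 had the highest level of the family. Its 37 TSSs summed to 14943 (14574 to 15319), which was 86.5 times the median of protein-coding genes with a TSS and placed it at rank 76 of the 13968 protein-coding genes. The strongest TSS, at 9041387 and 12 bp downstream of the annotated start, had a coverage of 13592 (13236 to 13955) from 5533 reads. That single base held 91.0% of the coverage, and the bases within 5 bp held 97.5%. The next TSSs had 409.6 at 3 bp upstream of it, 211.3 at 1 bp upstream and 160.2 at 27 bp upstream. Doc1 has a second annotated start 454 bp farther downstream, and no TSS was listed within 200 bp of it.

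Doc3 came second in the family. Its 22 TSSs summed to 4237 (4073 to 4407), at rank 395 of the protein-coding genes. The strongest TSS, at 9005198 and 2 bp downstream of the annotated start, had 3817 (3661 to 3978) from 2264 reads and held 90.1% of the coverage. The next TSSs had 148.4 at 3 bp upstream of it, 55.6 at 2 bp upstream and 35.6 at 4 bp upstream.

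Doc2 was the lowest of the cluster and less concentrated on 1 base. Its 20 TSSs summed to 674.5 (607.3 to 747.7), at rank 2056. The strongest, at 9019240 and 6 bp downstream of the annotated start, had 372.6 (325.1 to 425.1) from 221 reads and held 55.2% of the coverage. The next base downstream had 93.4 and a base 4 bp downstream had 60.3. The bases within 5 bp of the strongest held 90.4%, so that most of the coverage outside the strongest base lay beside it.

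Set against each other, the 3 genes of the cluster differed beyond counting error. The summed coverage of Doc1 was 3.53 times that of Doc3 (3.37 to 3.70) and 22.2 times that of Doc2 (19.9 to 24.7). Doc3 had 6.28 times the coverage of Doc2 (5.63 to 7.03). With the strongest TSS of each gene alone, the ratios were 3.56 (3.39 to 3.74), 36.5 (31.9 to 41.9) and 10.2 (8.92 to 11.8) in the same order. Doc1 carried 94.4% of its coverage on TSSs valued from the smallest library, while Doc3 carried 97.7% of its coverage on TSSs valued from the middle one. The ratios therefore set 1 library against another, and the part of the library in them was not tested. On TSSs valued from the middle library alone, which leaves out the strongest TSS of Doc1 by construction, Doc1 over Doc3 was 0.0505 and Doc1 over Doc2 was 0.515, and from the largest or the smallest alone Doc3 over Doc2 was 0.556 and 0.246. Whether reads of 1 Doc gene could align to another was not tested. On recovered reads without scaling, Doc1 over Doc3 was 2.52 and Doc1 over Doc2 was 16.6, with the same order.

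**Figure D2:**
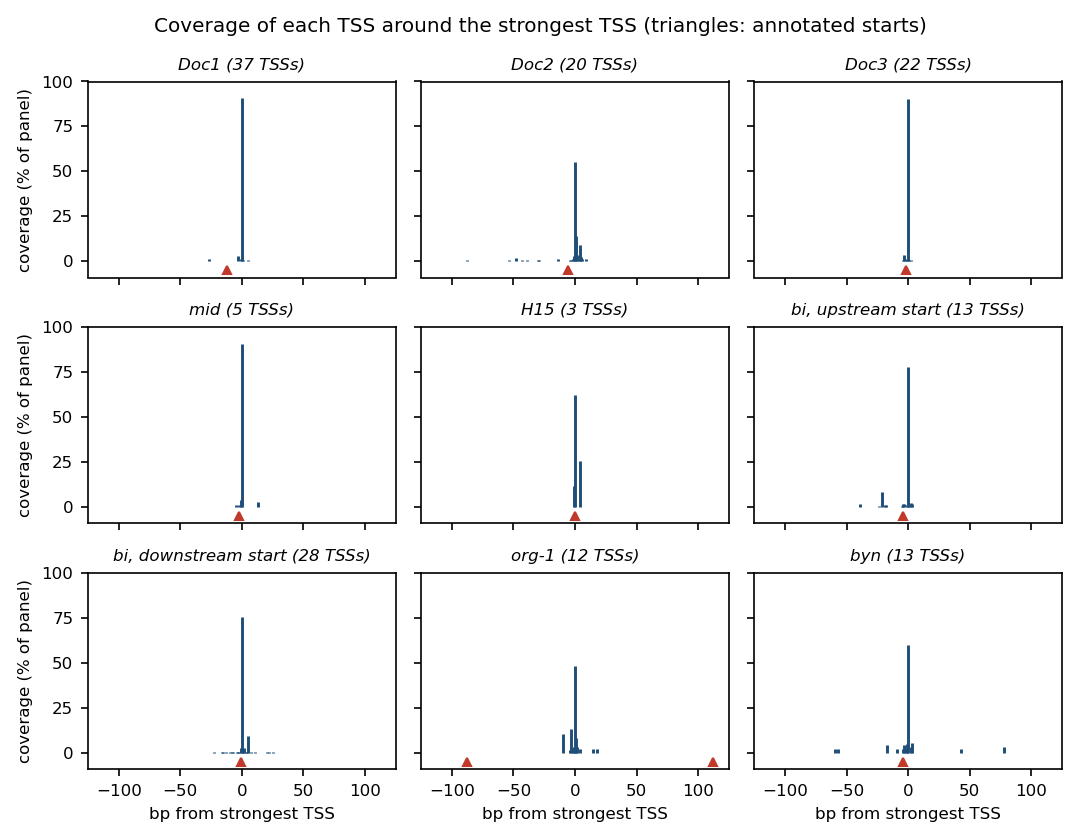
Share of the coverage of a gene (percent, vertical axis; for bi, of the start shown) at each TSS by its distance in bp from the strongest TSS (horizontal axis, transcription from left to right), for the T-box genes, with bi shown once for each of its 2 used starts and red triangles at annotated starts. Doc1, Doc3 and mid have over 90% at 1 base, while org-1 has 48.2% and its strongest TSS lies between its annotated starts (1 weak TSS of org-1, at 4.91, lies outside the window).

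TSSs away from the Doc starts were weak, with 1 exception inside Doc2. Over 40047 bp, from 200 bp before the start of Doc3 to the end of Doc1, 44 TSSs lay away from the Doc starts and summed to 1117, which was 5.32% of the coverage of the region. Most of that came from a TSS at 9014286 on the plus strand, with 803.3 (718.6 to 895.3) from 327 reads. It lies antisense to Doc2, a gene of 5 exons, in intron 4 (9013622 to 9014491), 4960 bp downstream of the start of Doc2. It is described here because of its value, which was seen first. The nearest annotated start on its strand is that of Doc3, 9090 bp away.

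At single bases, this antisense TSS was stronger than the strongest TSS of Doc2, while for the sums the direction depended on the scaling. Its coverage was 2.16 times that of the strongest TSS of Doc2 (1.81 to 2.57), and with the 1 further TSS within 200 bp the sum was 822.9 (737.2 to 916.0), or 1.22 times the sum of Doc2 (1.05 to 1.42). In recovered reads without scaling, the ratio was 1.48 for the strongest TSSs (327 against 221 reads) and 0.877 for the sums (335 against 382 reads). It held 97.6% of that sum at 1 base. Among protein-coding genes with a summed coverage of at least 100, 0.967% had a TSS on the other strand inside the gene and away from any start that exceeded their own strongest TSS. Among the 7 T-box genes at that level Doc2 was the 1 that had it. The antisense TSS was valued from the smallest library and the strongest TSS of Doc2 from the middle one, and the part of this in the ratio was not tested.

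The other annotated genes between the Doc genes were weak. CG5194, on the minus strand between Doc3 and Doc2, had 9 TSSs that summed to 103.8 (77.3 to 137.0). The long noncoding RNA gene lncRNA:CR46451 starts 446 bp from Doc1 on the other strand and is the only annotated gene whose start lies within 1000 bp of a T-box start. It had 1 TSS near its start, at 7.37 (1.52 to 21.5) from 3 reads, against 14943 at Doc1.

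**Figure D3:**
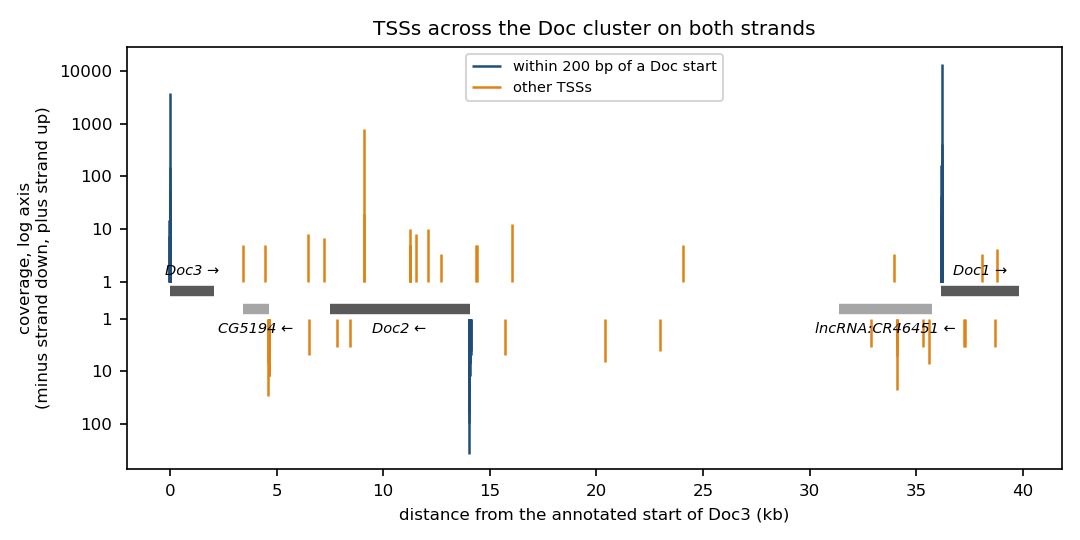
Coverage of every TSS across the Doc cluster (log axis, plus strand up and minus strand down) by distance in kb from the annotated start of Doc3, with TSSs near Doc starts in blue, other TSSs in orange and genes as grey bars. The TSS at 803.3 inside Doc2 on the plus strand is the only orange line above 100.

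The Tbx20-related pair mid and H15 lies on chromosome arm 2L, both genes on the plus strand with starts 57359 bp apart. The gene mid was well above H15, and the intervals of their sums were far apart. The gene mid (FBgn0261963, 5461639 to 5467610) had 5 TSSs that summed to 329.8 (276.8 to 389.9). Its strongest TSS, at 5461641 and 2 bp downstream of the annotated start, had 299.7 (248.9 to 357.8) from 122 reads and held 90.9% of the coverage. The other TSSs of mid had between 3.37 and 13.5.

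H15 (FBgn0016660, 5404280 to 5416593) was the weakest T-box gene and rested on 18 reads in all. Its 3 TSSs had 17.8 at 5404280, which is the annotated start itself, 7.37 at 5404284 and 3.37 at 5404279. They summed to 28.6 (16.6 to 47.0), at rank 8011 of the protein-coding genes. No TSS was listed near its second annotated start, 353 bp downstream, and the lowest value in the list is 3.37. The summed coverage of mid was 11.6 times that of H15 (6.81 to 20.4), and the ratio of their strongest TSSs was 16.8 (9.48 to 32.5). The ratio of sums was 7.67 in recovered reads without scaling, 17.6 for TSSs with a coverage of at least 10 and 18.1 for TSSs of at least 4 reads. The 2 strongest TSSs came from different libraries, mid from the smallest and H15 from the largest. On TSSs valued from the middle or the smallest library alone the ratio was 6.0 and 42.0. The largest, which leaves out the strongest TSS of mid by construction, gave no value for mid and 17.8 for H15.

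The TSSs away from both starts were each weak, but they were not a small part of the region. Over 63531 bp, 16 other TSSs summed to 72.7, which was 16.9% of the coverage, and the strongest, at 5427475 between the genes, had 6.85. Of these, 4 lay inside H15 and summed to 19.6, which was 43.7% of the coverage inside the gene on both strands, and 3 lay inside mid and summed to 11.7. The 4 inside H15 rested on 2 to 4 reads each, beside 18 reads at the start of H15. Of these 18, the 2 at 5404279 lie 1 bp upstream of the gene and are not in that percentage, which comes from few reads.

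The Tbx2-related gene bi (FBgn0000179, X, 4412856 to 4485647, plus strand) has 3 annotated starts, and 2 of them, far apart, had coverage. The other T-box genes have 1 annotated start or starts at most 454 bp apart, so none of them could show this. Its 41 TSSs summed to 2683 (2546 to 2826), at rank 625. The start at 4427135, shared by 3 transcripts, had 28 TSSs with 2027 (1913 to 2147), or 75.5% of the gene. The start at 4412856, used by 1 transcript and 14279 bp upstream, had 13 TSSs with 656.5 (582.3 to 737.8), or 24.5%. No TSS was listed near the start at 4413462, 606 bp downstream of the first, although 3 transcripts are annotated there.

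Both used starts of bi were sharp. The most upstream annotated coding base over the 7 transcripts of bi is at 4428435, and both used starts lie upstream of it. Whether each transcript begins its coding sequence at that base is not given here. The strongest TSS of the downstream start, at 4427136 and 1 bp from the annotation, had 1533 (1435 to 1636) from 909 reads, which is 57.1% of the gene but 75.6% of its own start. The strongest of the upstream start, at 4412860 and 4 bp from the annotation, had 511.0 from 208 reads, or 77.8% of that start. Within 5 bp of these bases lay 94.3% and 87.8% of the 2 starts. The strongest TSS came from the middle library at the downstream start and from the smallest at the upstream one.

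Over its 72792 bp, bi, the longest of the T-box genes, also held the most TSSs away from starts. For its length the number was not high, since Doc2 held 11 over 6561 bp. At bi there were 28, 27 in introns and 14 in the sense of the gene, and they summed to 181.1. None was strong, and the highest, at 4458773 in an intron on the plus strand, had 16.9. The minus-strand TSSs lie in an intron of the long noncoding RNA gene lncRNA:CR32773, which overlaps bi.

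The Tbx1 ortholog org-1 (FBgn0021767, X, 8447691 to 8455069, minus strand) was the gene whose TSSs fitted the annotation least. Its 12 TSSs summed to 213.3 (176.1 to 256.8), 1.24 times the median of protein-coding genes with a TSS. The strongest, at 8454981, had 102.8 (78.7 to 132.1) from 61 reads and lay 88 bp downstream of the annotated start at 8455069. The second annotated start, at 8454869, lies 200 bp downstream of the first, so that the main TSS falls between them. No TSS lay within 50 bp of either start.

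The strongest base of org-1 held 48.2% of its coverage, the lowest share of the family. Further TSSs of 28.7, 22.1 and 17.8 lay within 10 bp of it, and 83.1% of the coverage was within 5 bp. In the body of the gene, the strongest other TSS had 19.7, at 8447722 in the 3′ UTR, and an antisense TSS in an intron had 11.0 at 8453934.

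The Brachyury ortholog byn (FBgn0011723, 3L, 11927693 to 11935919, plus strand) lies on the same arm as the Doc genes but outside their cluster. Its 13 TSSs summed to 148.5 (120.2 to 182.7), 0.860 times the median of protein-coding genes with a TSS. The strongest, at 11927697 and 4 bp downstream of the annotated start, had 89.1 (68.7 to 113.5) from 65 reads and held 60.0% of the coverage. Each of the other 12 had under 10, with 8.43 the next highest, and they were spread from 55 bp upstream of the annotated start to 82 bp downstream.

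Upstream of byn, initiation on the other strand was also listed. Within 500 bp of its strongest TSS, 3 TSSs on the minus strand summed to 30.1, or 20.2% of the coverage of byn, with the strongest at 19.7, 358 bp away. At Doc2 such TSSs summed to 9.83, or 1.46% of the gene, and at Doc3 the single one had 4.91, or 0.116%. None was listed at Doc1, mid, H15, bi and org-1. The TSSs at Doc2 and Doc3 rested on 2 reads each. The share of all protein-coding genes with such TSSs was not computed, so their presence or absence is not read as a trait of these genes.

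Across the family, initiation was often concentrated at 1 base. Of the 7 T-box genes with a summed coverage of at least 100, 6 had over 50% of it at the strongest TSS, where 32.9% of protein-coding genes at that level did. The interquartile range of those genes was 22.4% to 58.9%, and their median was 35.3%. The median over all 8 T-box genes was 61.2%, which unlike these values includes H15, whose sum is below 100. The 6 embryo markers with a sum of at least 100 had shares from 58.3% at sna to 90.2% at eve. Shares over 50% were therefore not particular to the T-box genes. Partner genes of the lists below with such a sum ran from 25.8% at jeb to 90.2% at eve. The shares also combine TSSs valued from different libraries. Among the T-box genes, the bases within 5 bp of the strongest TSS held between 71.2% at bi, which has 2 used starts, and 100% at H15.

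The annotation and the TSSs coincided within a few bases at most of the genes. The strongest TSS lay within 5 bp of an annotated start at 5 of the 8, which are H15, bi, Doc3, mid and byn, where 37.7% of protein-coding genes with a TSS had this. It was 6 bp away at Doc2, 12 bp at Doc1 and 88 bp at org-1, in each case downstream. Of the 13 annotated starts of the T-box genes, 10 were the nearest start of at least 1 TSS, and 64.7% of the annotated starts of protein-coding genes were. The second start of org-1 counted only through 2 TSSs of 2 and 3 reads, 97 and 94 bp upstream of it. When the strongest start within 200 bp took each TSS, the first start of org-1 held 100% of the gene.

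The libraries behind the strongest TSSs were mixed. The middle library gave the strongest TSS of Doc2, Doc3, bi and org-1, the smallest that of Doc1 and mid, and the largest that of H15 and byn. Over protein-coding genes with a TSS, the same libraries gave 37.6%, 34.5% and 27.9%. Of the 153 TSSs, 36 rested on 2 reads.

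The T-box factors act with partner genes in each tissue, and these were all covered as well. Of 27 partner genes from lists by tissue, 27 had a TSS near a start, where 70.0% of protein-coding genes did, and 23 had a summed coverage of at least 100, where 43.7% did. Their median was 475.4. The hindgut list, which goes with byn, had a median of 401.0 over 8 genes, from 64.2 at tll, a terminal gap gene that acts upstream of byn, to 1770 at cad, a caudal homeobox gene. With 148.5, byn was lower than 7 of these 8.

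For the amnioserosa, where the Doc genes act, the median over 6 genes was 1451. The highest was ush, a cofactor of GATA factors, with 14652, which is within the counting interval of Doc1 (14574 to 15319). The ligand gene dpp had 1690, and the homeobox gene zen, which acts with Dpp upstream of the Doc genes, had 20.8.

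For the heart, which involves the Doc genes, mid and H15, the median over 6 genes was 511.3, from 35.7 at Hand to 3612 at svp, a nuclear receptor gene. The homeobox gene tin, needed for the heart, had 310.6, near mid at 329.8, while H15 at 28.6 was below all 6 in value, with an interval (16.6 to 47.0) that holds the value of Hand. For visceral and alary muscle, the median over 5 genes was 119.0, and org-1 with 213.3 lay above bap at 119.0 and bin at 113.0, which are transcription factor genes of the visceral mesoderm, and above Alk at 60.4, a receptor gene. It lay below jeb at 475.4, which encodes the ligand of Alk, and below the homeobox gene tup at 1212. For the list of the optic lobe and the wing, where bi acts, all 4 genes were above 1000, from 1129 at wg to 5954 at hth. With 2683, bi lay between dpp at 1690 and Dll at 4012. These are levels of whole embryos of 0 to 12 h, not of the optic lobe or the wing, and dpp also stands in the amnioserosa list.

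**Figure D4:**
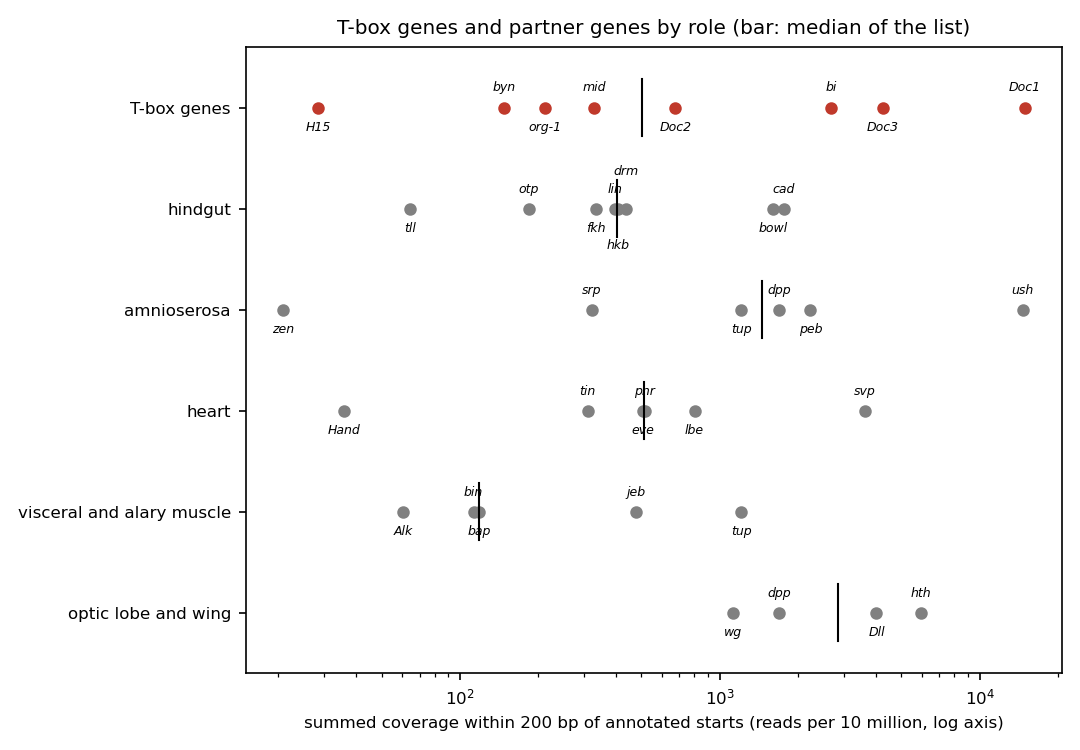
Summed coverage within 200 bp of annotated starts, in reads per 10000000 on a log axis, of the T-box genes (red) and of partner genes by tissue (grey), 1 circle per gene, with a bar at the median of each list. The T-box genes span 28.6 to 14943, a range close to that of the amnioserosa list (20.8 to 14652), and tup and dpp stand in 2 lists each.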

How the data were processed

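Initiating transcripts of embryos aged 0 to 12 h were sequenced in 3 csRNA-seq libraries, beside 1 input library. The authors cut adapters, aligned with STAR to dm6 and called each TSS with HOMER at a minimum of 3; the lowest listed coverage was 3.37, and some TSSs rest on 2 reads. The submitters' processing notes name STAR 2.7.9a, HOMER 4.11, bedtools 2.30.0 and bcl2fastq 2.17. The authors' coverage signal is scaled to library size. The authors also deposited log2(x + 1) of the coverage for a deduplicated list, which was used for its membership only.

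All 232302 values gave back whole reads of exactly 1 library, within a tolerance of 1e-06. The TSS values rest on 5918979 reads. Starts came from the Ensembl 115 annotation (BDGP6.54), whose coordinates are those of dm6, and a TSS was assigned to the nearest start. Intervals are gamma intervals for sums of scaled Poisson counts, exact binomial for ratios of single TSSs, and combined on the log scale for ratios of sums. They cover counting error only, since PCR duplicates are not told apart. The steps were tested on simulated data. The members, the lists and the rule that names all members were chosen with earlier results of these data known. DNA and protein sequences were not used here, so core promoter motifs were not analysed. Alternatives varied the distance to a start, the minimum, the TSS list, the scaling and the library. The software was SciPy 1.17.1, pandas 2.3.3, NumPy 2.4.6 and matplotlib 3.10.9 under Python 3.11.15.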

Additional observations from a re-analysis of the deposited data

How the results depend on the processing

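The order of the 8 genes was the same in 6 of 7 alternatives (500 bp, strongest TSS alone, deduplicated list, coverage of at least 10, at least 4 reads, unscaled reads). Within 50 bp of a start, org-1 had no TSS, and 7 genes were left. The sum over the family, 23258, was 19824 with the strongest TSSs alone, 20335 in the deduplicated list, 22707 at a minimum of 10 and 11074 in unscaled reads. Doc1 over Doc2 was 36.5 with the strongest TSSs and in the deduplicated list, 24.8 at a minimum of 10 and 16.6 in unscaled reads, where Doc1 over Doc3 was 2.52. Doc3 over Doc2 was 10.2 with the strongest TSSs and in the deduplicated list. The antisense TSSs inside Doc2 over the start of Doc2 were 0.877 for sums of unscaled reads, an alternative chosen after seeing the data, where scaled coverage gave 1.22. The median share at the strongest TSS was 93.7% within 5 bp and 91.6% at a minimum of 10. At that minimum byn and H15 kept 1 TSS each, so their share was 100% by construction. It was 91.7% at Doc1, 91.5% at Doc3 and 95.7% at mid, but 60.7% at bi, 62.4% at Doc2 and 60.0% at org-1. The share over all protein-coding genes was not recomputed at that minimum.

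Using only TSSs valued from 1 library, chosen after seeing the data, leaves out by construction the strongest TSS of 4 to 6 of the 8 genes, and the order held in 0 of 3. For the largest, middle and smallest library, Doc1 over Doc2 was 6.32, 0.515 and 83.3, Doc1 over Doc3 was 11.4, 0.0505 and 338, and Doc3 over Doc2 was 0.556, 10.2 and 0.246. Mid over H15 was 6.0 in the middle and 42.0 in the smallest, and the largest gave no value for mid and 17.8 for H15.

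No paired analysis was possible because the list holds 1 value per TSS, and for the same reason no replicate was left out in turn. The motif alternative was not run. Depth limits H15 most, with 18 reads.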

Other observations

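The distance from the strongest TSS to the first annotated coding base, measured along the genome with introns included, differed widely among the T-box genes. It was shortest at Doc3 with 120 bp and Doc1 with 153 bp, followed by 277 bp at mid, 349 bp at Doc2, 600 bp at H15 and 687 bp at org-1. The longest were 1299 bp at bi, counted from its downstream start, and 4309 bp at byn, the hindgut gene. Doc1 and Doc3 also had the highest and the second highest coverage of the family, and no test was made of this.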
